A study of Mus musculus with 104 samples.

Results

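Control Kupffer cells, macrophages that reside in the liver, were compared with wild-type bone marrow-derived macrophages (BMDMs), macrophages grown in a dish from bone marrow, across all genes. The comparison was set by sample labels alone and takes 4 of the study's 104 RNA-seq libraries, 2 for each cell type. The study as a whole follows how liver signals shape macrophages in mice, and these 4 libraries sit in a table of 10 libraries in 5 groups. The Kupffer cells are labelled Nr1h3 flox/flox with no treatment, so both copies of Nr1h3 carry loxP sites and no Cre recombinase is named. Their titles carry the tags cleN and timP, read here as mice without Clec4f-cre and cells with TIM4 protein, which the labels do not spell out. The BMDMs are labelled Nr1h3 WT, with no treatment after 7 days of culture, and the study's design text names C57BL/6J mice among the sources of BMDMs. Cells purified by flow cytometry were lysed straight into bead-binding buffer and cultured cells went through a column kit, per the labels' protocols. Cell type, culture, RNA preparation and the flox alleles differ together between the groups, so their parts in any difference cannot be told apart. The labels give neither age nor sex, and nothing says whether replicates came from separate mice or cultures. Standard errors and p-values thus measure only the spread between replicate libraries, which may be technical. That spread was estimated jointly over all 10 libraries in 5 groups, not from the 4 compared libraries alone.

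Kupffer cells line the liver sinusoids, where they take up bacteria, dying cells and aged red blood cells and recycle the iron of hemoglobin. They settle in the liver before birth or are replaced from blood monocytes, and the nuclear receptor LXR-alpha, encoded by Nr1h3, is one of the factors that maintain them. BMDMs grow from marrow progenitors under a colony-stimulating factor and are widely used as a model of macrophages without tissue signals.

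Values are TPM, transcript counts scaled for length and library. Recovered reads came to 14217648 and 13353517 in the Kupffer libraries and to 27776747 and 17298481 in the BMDM libraries, so low genes are measured with more counting error in Kupffer cells. Of 24940 genes listed, 10558 reached 4 TPM in at least 2 of the 10 libraries and were tested with limma on log2(TPM + 1). A gene was called when its Benjamini-Hochberg adjusted p was below 0.05 and its difference at least 2-fold. All differences below are Kupffer minus BMDM on the log2(TPM + 1) scale with their standard errors, a scale that understates changes of low genes. Where both libraries of a group are at 0, the fold is given as a lower bound against 3 reads per library.

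By this rule 3856 genes differed, which is 36.5% of those tested. Of these, 2175 were higher in Kupffer cells (20.6% of the genes tested) and 1681 were lower (15.9%). At 16-fold or more, 199 genes were higher and 115 lower. The median difference over all genes tested was 0.05, and the lists described below are read against these shares. The 2 libraries of a group did not overlap those of the other for 9653 genes (91.4%), so a lack of overlap sets few genes apart here. Replicates were closer in BMDMs, where 99.72% of genes lay within 2-fold of each other, than in Kupffer cells, where 98.31% did.

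**Figure D1:**
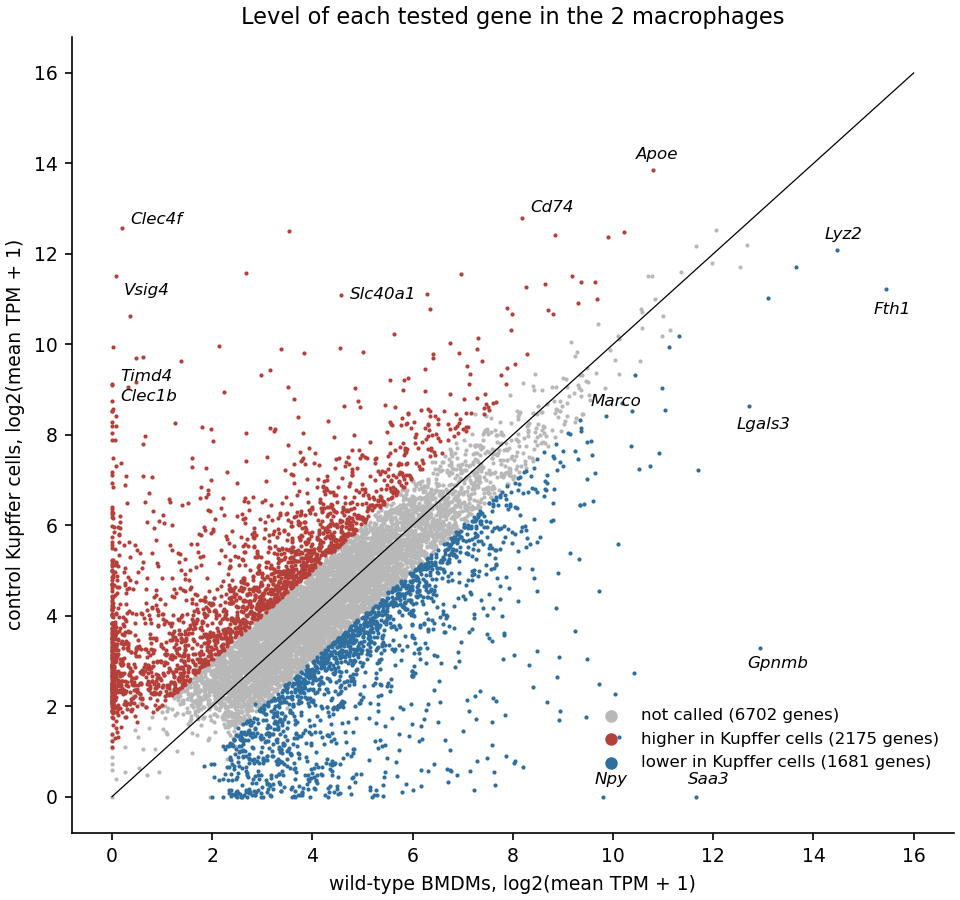
Mean TPM of each of the 10558 tested genes in wild-type BMDMs (x axis) and control Kupffer cells (y axis), both as log2(mean TPM + 1), coloured by call, with the line of equal levels. Clec4f, Vsig4, Clec1b and Timd4 lie at the left edge, Saa3 and Npy at the bottom, and Fth1 at the far right.

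The most abundant transcripts were not the same. Apoe, a lipid-carrying apolipoprotein, was highest in Kupffer cells at 14107 and 15606 TPM, against 1772 and 1788 TPM in BMDMs. Fth1, the heavy chain of the iron store ferritin, was highest in BMDMs at 45159.9 and 44678 TPM, against 2531 and 2217 TPM in Kupffer cells. The 10 most abundant genes held 11.9% and 12.1% of all TPM in Kupffer cells and 21.7% and 21.6% in BMDMs. In Kupffer cells these 10 were Apoe, Cd74, Clec4f, Tmsb4x, Cd5l, C1qb, C1qa, C1qc, Actb and B2m by their mean, and in BMDMs Fth1, Lyz2, Ftl1, Ctsd, Gpnmb, Lgals3, Actb, Psap, Tmsb4x and Ctsb.

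The label of the Kupffer cells was met by their known markers, several of which were at or near 0 in BMDMs. Clec4f, a C-type lectin found on Kupffer cells (mm10 chromosome 6, 83644542 to 83656116), read 6243 and 5984 TPM in the Kupffer libraries and 0.078 and 0.219 TPM in the BMDM libraries, a difference of 12.38 ± 0.06 (limma adjusted p = 1.6e-12). Vsig4, a complement receptor that binds C3b, read 2777 and 3065 TPM against 0 and 0.105 TPM, a difference of 11.44 ± 0.09 (limma adjusted p = 7.9e-12). Timd4, the TIM4 receptor for phosphatidylserine on dying cells, read 532 and 556 TPM in Kupffer cells and 0 in both BMDM libraries, at least 6461-fold higher (limma adjusted p = 2.1e-11). If the cells were sorted on TIM4, that level follows in part from the sort. Clec1b, the CLEC-2 receptor known from platelets, read 529.8 and 580.1 TPM against 0 in both BMDM libraries and was at least 3539-fold higher (limma adjusted p = 2.2e-11).

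Of 25 genes listed as Kupffer identity, all were tested, 23 were higher and none lower, with a median difference of 6.28 against 0.05 over all genes. Timd4, Clec1b and Kcnj16 were at 0 in both BMDM libraries and could pass the 4 TPM filter only through other libraries. The list was also chosen with earlier results of these data known, so its count is no independent check of the label. Marco and Id1 were not called. Marco, a scavenger receptor for bacteria, read 705 and 395 TPM in Kupffer cells and 689 and 575 TPM in BMDMs, a difference of -0.25 ± 0.22 (limma adjusted p = 0.32). Id1, an inhibitor of helix-loop-helix factors, read 53.6 and 42.1 TPM against 70 and 62.3 TPM. Its partner gene Id3, which Kupffer cells need, was higher by 1.95 ± 0.22 (limma adjusted p = 3.4e-05), at 410.5 and 274 TPM against 87.4 and 84.9 TPM. Cd5l, a secreted scavenger-like protein that binds IgM, stood at 5701 and 5875 TPM against 9.19 and 11.9 TPM, a difference of 8.98 ± 0.12 (limma adjusted p = 8.4e-11). Fcna, a ficolin that recognizes sugars on microbes, read 3134 and 2986 TPM against 5.62 and 5.16 TPM and differed by 8.90 ± 0.07.

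Genes of macrophages in general were expressed in both cell types. Of 20 tested, 7 were higher, 3 lower and 10 not called. Csf1r, the receptor for the growth factor M-CSF, was higher by 2.33 ± 0.05 (limma adjusted p = 2e-09), at 2884 and 2976 TPM against 596 and 567.4 TPM. Fcer1g, the Fc receptor signalling chain, read 1164 and 1049 TPM against 1118 and 1105 TPM, a difference of -0.01 ± 0.07 (limma adjusted p = 0.92). The 3 lower genes were Cd68, Lyz2 and Itgam. Lyz2, which encodes lysozyme, read 4614 and 4088 TPM in Kupffer cells against 23335 and 21970.5 TPM in BMDMs, and Itgam, the CD11b integrin chain that is low on Kupffer cells, read 35.1 and 28.5 TPM against 348 and 316 TPM, a difference of -3.35 ± 0.14 (limma adjusted p = 8e-08).

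The 15 largest called differences in each direction were taken by a fixed rule. Beside the genes above, the higher set held Apoc1, C6, Vcam1, Hpgd, Cxcl13, Cdh5, Plbd1, Gbp2b and Ear12. Cxcl13, the chemokine that draws B cells, read 428 and 428 TPM against 0 in both BMDM libraries, at least 2716-fold higher (limma adjusted p = 5.1e-10). Cdh5, the cadherin of endothelial junctions, read 530 and 529.8 TPM against 0.212 and 0.282 TPM, a difference of 8.73 ± 0.07 (limma adjusted p = 8.8e-12). Hpgd, which breaks down prostaglandins, read 838 and 836 TPM against 0.601 and 0.481 TPM and differed by 9.09 ± 0.07 (limma adjusted p = 7.2e-12).

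The lower set was led by Saa3, Npy, Gpnmb, Adam8, S100a4, Lgals1, Anxa1 and Slpi. Saa3, an acute-phase serum amyloid, read 0 in both Kupffer libraries and 3260.4 and 3228 TPM in BMDMs, at least 5697-fold lower in Kupffer cells (limma adjusted p = 7.2e-12). Npy, neuropeptide Y, read 0 in both Kupffer libraries and 855 and 920.1 TPM in BMDMs, at least 1656-fold lower (limma adjusted p = 2e-11). Gpnmb, a glycoprotein of lipid-laden and lysosome-rich macrophages, read 9.28 and 8.35 TPM against 7797 and 7754 TPM, a difference of -9.63 ± 0.17 (limma adjusted p = 4.2e-10). The rest of this set were Syngr1, Emp1, S100a6, Clec4d, Kcnn4, Pdpn and Fabp5, at 0.11 to 5.07 TPM in Kupffer cells and 149 to 842 TPM in BMDMs.

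**Figure D2:**
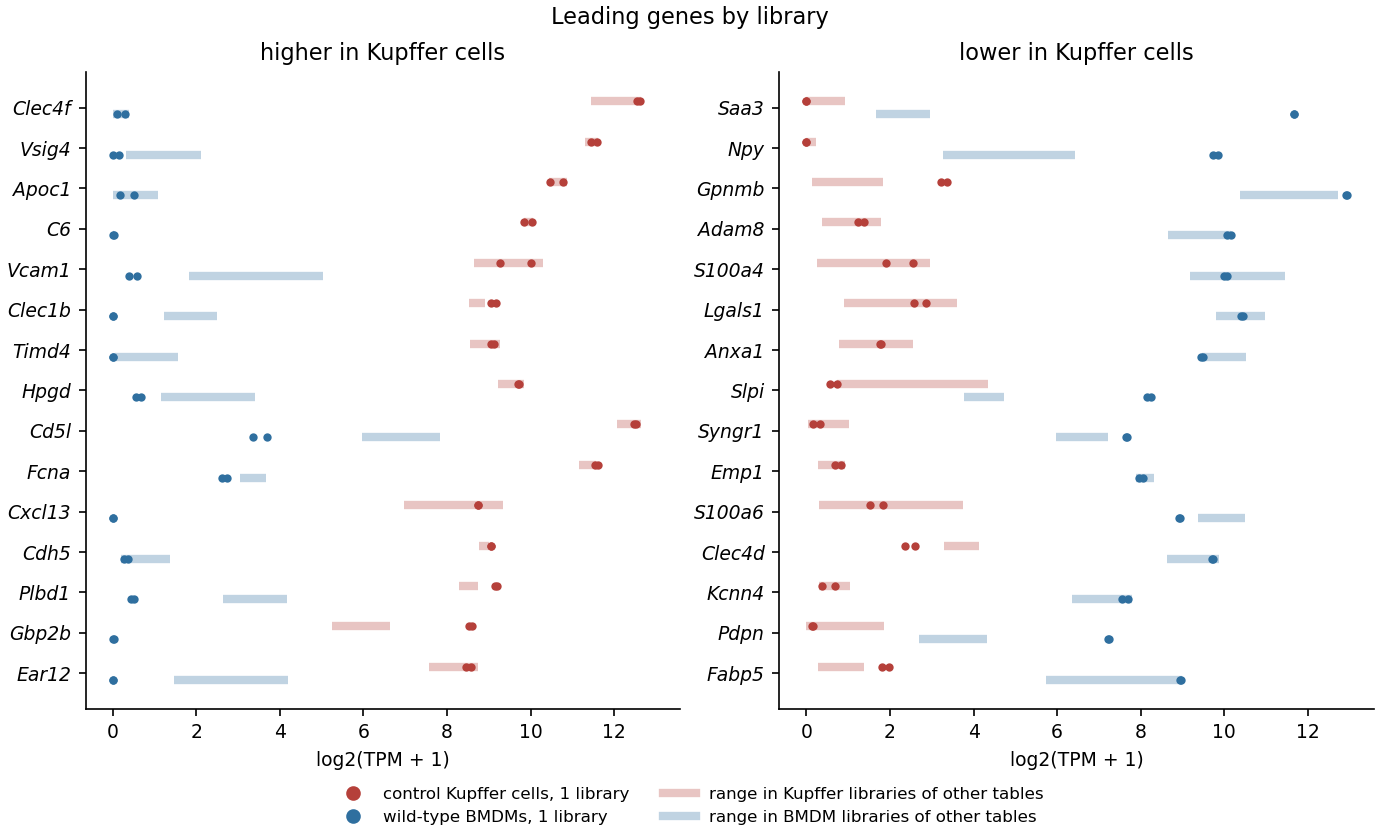
The 15 called genes with the largest difference in each direction, as log2(TPM + 1) in each library (points), with the range over 5 Kupffer and 6 untreated BMDM libraries of other tables of the study (bars). Points of the 2 cell types are far apart for every gene drawn, and the BMDM points of Saa3, Npy, Pdpn and Slpi lie above the BMDM bars.

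Other libraries of the same cell types, in tables scaled separately, show which levels recur. They are 3 Kupffer libraries of Clec4f-cre/Rosa26iDTR mice 72 h after PBS, 2 of untreated Smad4 flox/flox mice and 6 of untreated BMDMs. Those BMDMs were Smad4 flox/flox (2 libraries) or C57BL/6J (4 libraries) and cultured for 4 or 6 days, not 7. Of the 2175 genes higher in Kupffer cells, 1772 (81.5%) had all 5 of those Kupffer libraries above all 6 BMDM libraries, and 3 had the reverse. Of the 1681 lower genes, 1336 (79.5%) had all 6 BMDM libraries above, and 7 had the reverse. Among the 6702 genes not called, 14.8% had all Kupffer libraries above and 20.3% all BMDM libraries above.

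The BMDM level of some leading genes was outside that of the other, shorter cultures. Saa3 read 2.17 to 6.81 TPM in the other BMDM libraries, Npy 8.64 to 85.7 TPM and Pdpn, the mucin-like podoplanin, 5.52 to 19.1 TPM, against 149 and 149 TPM here. Marco read 5.71 to 27 TPM in the other BMDM libraries and 287 to 1042 TPM in the other Kupffer libraries, so the lack of a difference here was not seen there. Hmox1, the heme-degrading oxygenase, was lower in Kupffer cells here at 1219 and 1111 TPM against 2525 and 2561 TPM, a difference of -1.13 ± 0.14 (limma adjusted p = 6.3e-05). In the other tables it read 1304 to 2099 TPM in Kupffer cells and 838 to 1011 TPM in BMDMs, the reverse order. Ccr2, the receptor for the monocyte attractant CCL2, was higher in Kupffer cells here at 2.4 and 2.34 TPM against 0.143 and 0.25 TPM, and lower there at 1.4 to 5.33 TPM against 19.5 to 119 TPM.

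**Figure D3:**
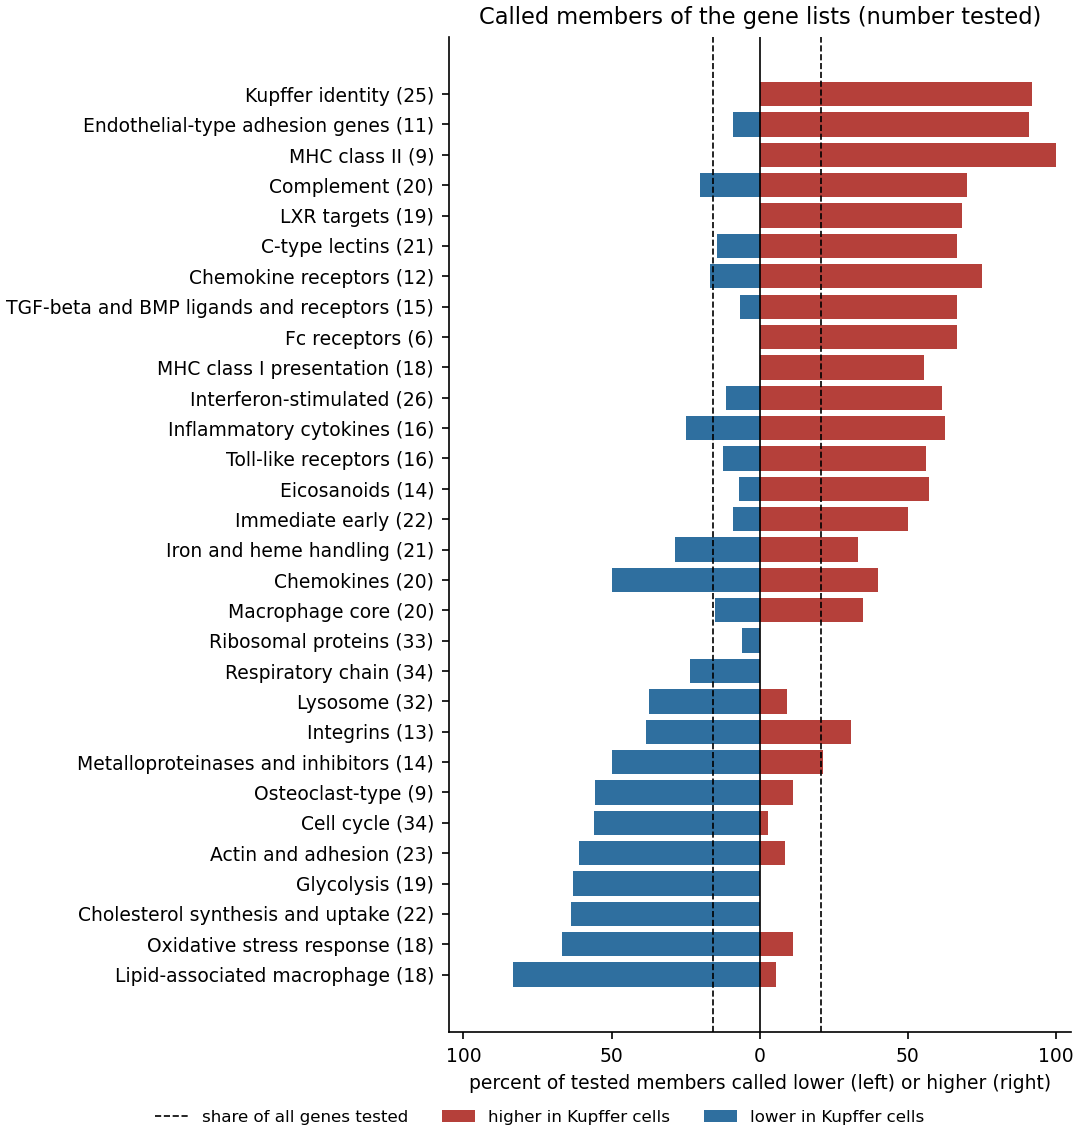
Percent of the tested members of 30 gene lists called higher in Kupffer cells (right) or lower (left), with the number tested in parentheses and dashed lines at the 20.6% and 15.9% of all genes tested. MHC class II stands at the right limit with 9 of 9 members higher, and the lipid-associated list furthest left with 15 of 18 lower.

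Regulators of tissue macrophages were uneven. Nr1h3, whose protein LXR-alpha senses oxidized sterols, read 409 and 393 TPM in Kupffer cells and 41.9 and 43.3 TPM in BMDMs, a difference of 3.20 ± 0.08 (limma adjusted p = 3e-09). Its relative Nr1h2, which encodes LXR-beta, was not called, at 95.2 and 81.6 TPM against 62.3 and 63.8 TPM. Spic, a factor of iron-recycling macrophages, was higher by 4.74 ± 0.09 (limma adjusted p = 8e-10), at 109 and 87.6 TPM against 2.71 and 2.68 TPM. Batf3, a leucine zipper factor best known from dendritic cells, read 93.5 and 83.8 TPM against 1.78 and 1.9 TPM, and Tcf7l2, a Wnt pathway factor, 71.9 and 67.2 TPM against 6.85 and 6.55 TPM. Rbpj, the DNA-binding partner of Notch, was lower, with a difference of -2.27 ± 0.08 (limma adjusted p = 1.9e-08), at 5 and 4.83 TPM against 26.8 and 28.4 TPM.

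Among 28 general macrophage transcription factors tested, 9 were higher, 6 lower and 13 not called. The pioneer factor Spi1, which encodes PU.1, read 546 and 474 TPM against 379 and 384 TPM, a difference of 0.42 ± 0.09 (limma adjusted p = 0.0023), below 2-fold. Bhlhe41, known from alveolar macrophages, went the other way, at 0.125 and 0.085 TPM against 59.8 and 67.1 TPM, a difference of -5.86 ± 0.10 (limma adjusted p = 3e-10). Atf3, a stress-induced repressor, was lower, with a difference of -3.51 ± 0.29 (limma adjusted p = 4.6e-06). Of 6 Notch target genes tested, 2 were higher and 3 lower. Hes1, a repressor turned on by Notch, read 24.2 and 14.6 TPM against 0 in both BMDM libraries, at least 154-fold higher (limma adjusted p = 3.4e-06), while Dtx4 was lower, with a difference of -2.08 ± 0.13 (limma adjusted p = 8.8e-07). Of 15 TGF-beta and BMP ligands and receptors tested, 10 were higher and 1, Gdf15, lower, with Acvrl1, the ALK1 receptor of BMP9, at 67.4 and 65.5 TPM against 11.1 and 10.7 TPM, a difference of 2.51 ± 0.06 (limma adjusted p = 1.7e-09).

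LXR target genes were mostly higher. Of 19 LXR targets, 13 were higher and none lower, with a median of 2.69. Abca1, which exports cholesterol to apolipoproteins, read 96.2 and 161.5 TPM in Kupffer cells against 14 and 13.9 TPM in BMDMs, a difference of 3.07 ± 0.19 (limma adjusted p = 8.6e-07). Abcg1, its counterpart for HDL, read 99.5 and 129 TPM against 14.5 and 17.7 TPM and differed by 2.75 ± 0.13 (limma adjusted p = 1.1e-07). Apoc1, an apolipoprotein gene next to Apoe, read 1761 and 1413 TPM against 0.426 and 0.136 TPM, a difference of 10.28 ± 0.36 (limma adjusted p = 2.1e-08). Mylip, which encodes a ubiquitin ligase, was higher by 2.12 ± 0.11 (limma adjusted p = 2.3e-07). Among LXR targets of lipid synthesis, Scd1, a fatty acid desaturase, read 55.6 and 79.3 TPM against 0.755 and 1.05 TPM, a difference of 5.15 ± 0.38 (limma adjusted p = 2.4e-06). Srebf1, which encodes a factor of that synthesis, was not called and read 29.8 and 35.3 TPM against 35.2 and 32.7 TPM, a difference of -0.06 ± 0.10 (limma adjusted p = 0.55).

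Most genes of cholesterol synthesis and uptake were lower in Kupffer cells. Of 22 tested, 14 were lower and none higher, with a median of -1.55. Sqle, squalene epoxidase, read 1.68 and 1.02 TPM against 70.4 and 68.1 TPM, a difference of -4.92 ± 0.12 (limma adjusted p = 3.3e-09). Fdps, which makes farnesyl diphosphate, read 3.7 and 2.72 TPM against 35.9 and 32.6 TPM and differed by -3.07 ± 0.12 (limma adjusted p = 4.5e-08). Srebf2, the factor that turns the pathway on, was lower, with a difference of -1.82 ± 0.10 (limma adjusted p = 3.2e-07). Early and late steps were both among the 8 genes not called, such as Mvd at 20.6 and 20.1 TPM against 19.6 and 17.8 TPM and Ebp at 27.6 and 24.8 TPM against 29.3 and 28 TPM.

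A short motif was frequent in the promoters of this list. The motif CCAAT, the box bound by NF-Y, was searched on both strands in RefSeq promoters (GRCm38.p6, 250 bases before to 50 after the gene start). It occurred in 13 of the 15 list members with a promoter in the table (86.7%), in 38.4% of the 8160 tested genes with one and in 37.4% of all 32851 promoters there. Mvd and Ebp, which were not called, hold it too. The promoter of Msmo1, a sterol oxidase at 9.64 and 9.3 TPM against 63.8 and 66.5 TPM, is shown because it holds 3 copies (chr8:64733529-64733828, - strand; capitals mark CCAAT).
Msmo1: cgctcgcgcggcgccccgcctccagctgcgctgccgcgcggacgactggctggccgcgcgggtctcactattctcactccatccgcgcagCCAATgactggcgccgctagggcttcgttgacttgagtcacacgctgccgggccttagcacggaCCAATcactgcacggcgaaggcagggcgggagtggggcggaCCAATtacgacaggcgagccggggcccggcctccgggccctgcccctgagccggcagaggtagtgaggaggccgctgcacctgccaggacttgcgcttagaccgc

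Of 15 genes of fatty acid synthesis and storage tested, 3 were higher (Scd1, Lpin1 and Acly), 4 lower (Me1, Plin2, Fasn and Acsl1) and 8 not called, with a median of -0.09. Acly lost its call by limma-voom and without Kupffer replicate 2. Fasn, fatty acid synthase, read 4.93 and 6.53 TPM against 33.6 and 31 TPM, a difference of -2.32 ± 0.11 (limma adjusted p = 1.5e-07).

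Most genes of lipid-laden macrophages were lower. Of 18 lipid-associated macrophage genes, 15 were lower, Apoe alone was higher and Ctsb and Itgax were not called, with a median of -3.89. Trem2, the lipid-sensing receptor, read 40.9 and 40.8 TPM in Kupffer cells against 564 and 568.3 TPM in BMDMs, a difference of -3.76 ± 0.06 (limma adjusted p = 3.8e-10). Spp1, osteopontin, read 5.88 and 8.55 TPM against 744 and 680.2 TPM and differed by -6.46 ± 0.30 (limma adjusted p = 1.4e-07). Lgals3, galectin-3, read 403 and 387 TPM against 6528 and 6979 TPM, a difference of -4.09 ± 0.09 (limma adjusted p = 1.1e-09). Fabp5, a fatty acid carrier, read 2.53 and 2.95 TPM against 487 and 499 TPM, a difference of -7.05 ± 0.19 (limma adjusted p = 4e-09). Itgax, which encodes CD11c, read 5.73 and 7.27 TPM against 7.65 and 7.98 TPM here but 23.3 to 230.4 TPM in the other BMDM libraries.

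**Figure D4:**
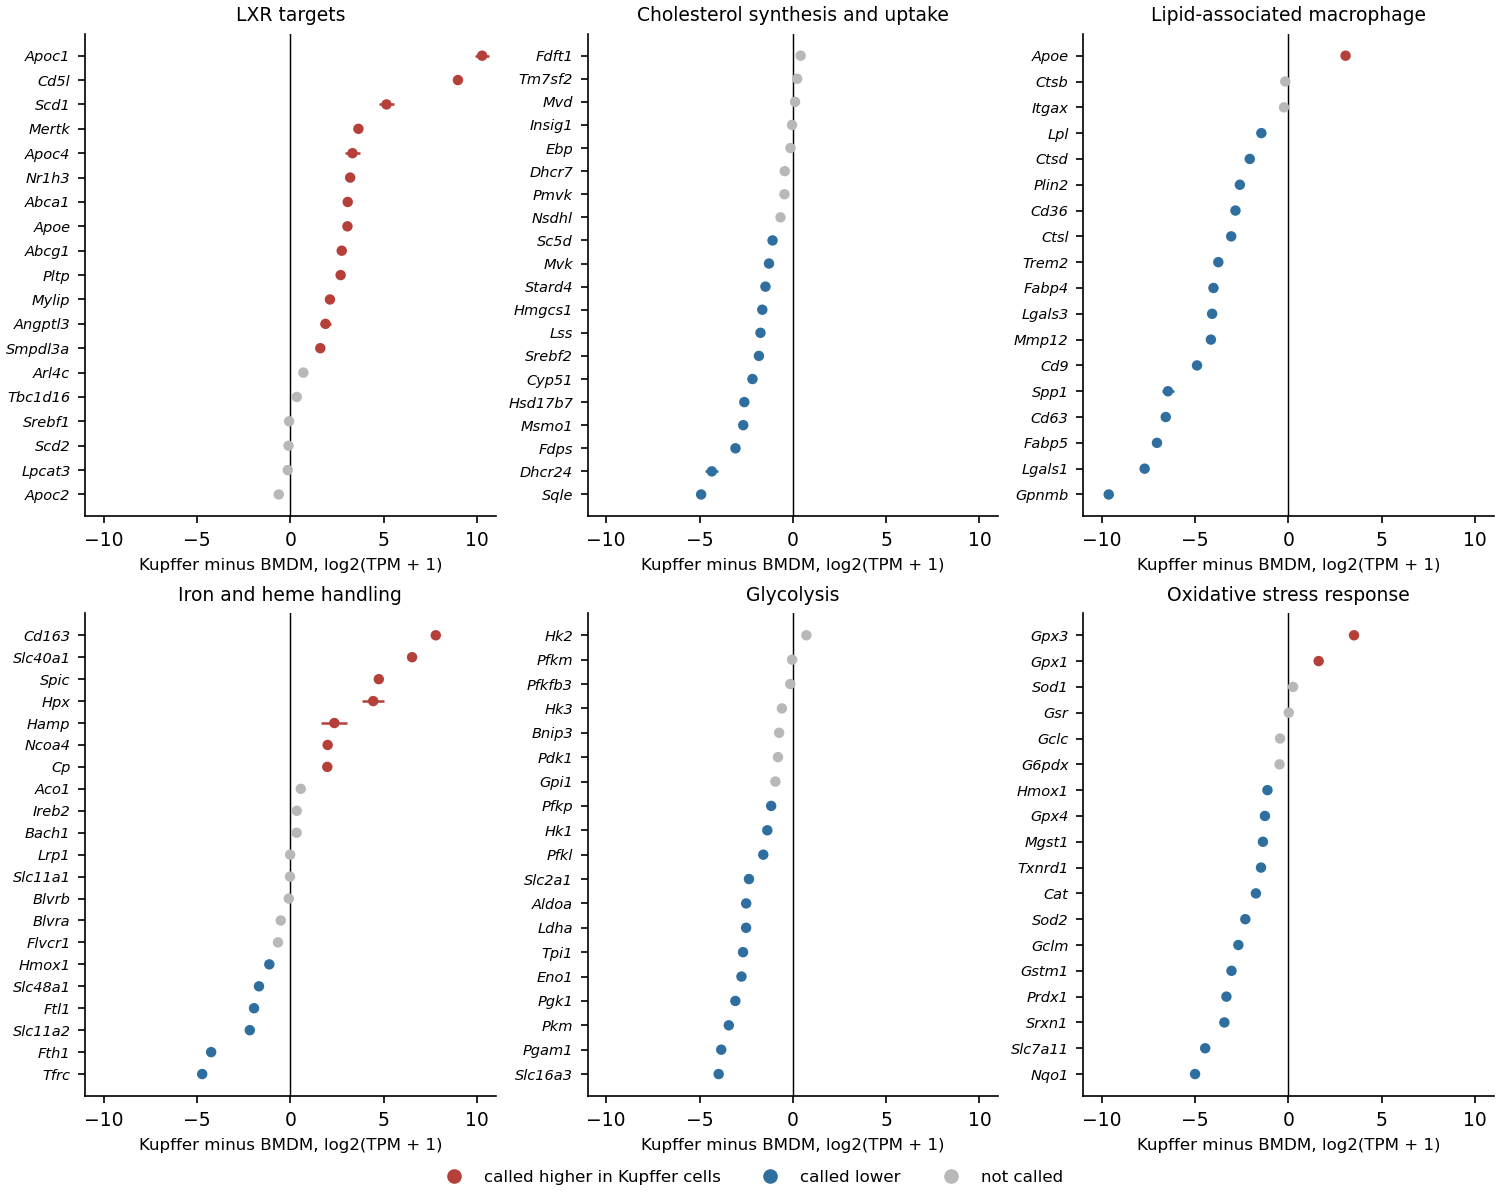
Difference between Kupffer cells and BMDMs on the log2(TPM + 1) scale for tested members of 6 lists (2 of the cholesterol list are not drawn), with the standard error (bars), coloured by call. LXR targets lie to the right, the cholesterol, lipid-associated, glycolysis and oxidative stress members mostly to the left, and iron genes on both sides. Members listed at 0 in both BMDM libraries (Apoc4 and Hamp) have fitted values that are no bounds.

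Iron and heme genes were called in both directions. Of 21 tested, 7 were higher and 6 lower. Cd163, the receptor for hemoglobin bound to haptoglobin, read 818 and 1162 TPM in Kupffer cells against 3.71 and 3.11 TPM in BMDMs, a difference of 7.79 ± 0.14 (limma adjusted p = 5.8e-10). Slc40a1, the iron exporter ferroportin, read 2179 and 2209.7 TPM against 21.8 and 24 TPM and differed by 6.52 ± 0.07 (limma adjusted p = 2.2e-11). Fth1, given above, was lower, with a difference of -4.24 ± 0.08 (limma adjusted p = 5.1e-10), and Ftl1, the ferritin light chain, read 3522 and 3166 TPM against 12653 and 13087 TPM, a difference of -1.95 ± 0.09 (limma adjusted p = 1e-07). Tfrc, the transferrin receptor that imports iron, read 20.1 and 13.7 TPM against 445 and 486 TPM, a difference of -4.72 ± 0.20 (limma adjusted p = 6.4e-08). Slc11a1, the phagosomal metal transporter NRAMP1, was not called at 538 and 532 TPM against 540.2 and 543 TPM. Hpx, Hamp and Cp, among the 7 higher, are chiefly hepatocyte genes, and Hpx read 46.4 and 10.4 TPM in the Kupffer libraries, in the order of the hepatocyte markers given below. Hamp lost its call without Kupffer replicate 1.

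Most complement genes were higher in Kupffer cells. Of 20 tested, 14 were higher and 4 lower, with a median of 2.30. C1qa, a chain of the C1q recognition protein, read 5776 and 5196 TPM against 465 and 448 TPM, a difference of 3.58 ± 0.06 (limma adjusted p = 4.4e-10). C6, a part of the membrane attack complex, read 918 and 1039 TPM against 0 and 0.026 TPM and differed by 9.91 ± 0.14 (limma adjusted p = 1.2e-10). Cfp, properdin, which stabilizes the alternative convertase, was higher by 2.70 ± 0.07 (limma adjusted p = 4.7e-09). The 4 lower genes were C3 and the receptor genes C3ar1, C5ar1 and Itgam. C5ar1, the receptor for the anaphylatoxin C5a, read 71.7 and 65.9 TPM against 461 and 429 TPM, a difference of -2.68 ± 0.15 (limma adjusted p = 3.3e-07). C3 itself read 68.4 and 50.3 TPM against 219 and 203 TPM here, but 38.7 to 204 TPM in the other Kupffer libraries and 17.5 to 44.5 TPM in the other BMDM libraries.

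Receptors for dying cells and other cargo were mixed. Of 15 genes of TAM receptors and dead cell uptake tested, 6 were higher and 4 lower. Axl, a TAM receptor kinase, read 789 and 802 TPM in Kupffer cells against 1.52 and 1.7 TPM in BMDMs, a difference of 8.25 ± 0.08 (limma adjusted p = 2.1e-11), and its relative Mertk was higher by 3.65 ± 0.08 (limma adjusted p = 1.6e-09). Their bridging ligand Gas6 went the other way, at 16.3 and 13.5 TPM against 224 and 217 TPM, a difference of -3.81 ± 0.10 (limma adjusted p = 4e-09). Mfge8, which bridges phosphatidylserine to integrins, read 2.04 and 2.99 TPM against 210 and 247 TPM and differed by -6.04 ± 0.14 (limma adjusted p = 1.7e-09). Among 16 scavenger receptors tested, 8 were higher and 3, Cd68, Stab1 and Cd36, lower. Cd36, which takes up oxidized lipids, read 41.7 and 62.8 TPM against 358 and 388 TPM, a difference of -2.84 ± 0.17 (limma adjusted p = 5.7e-07).

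C-type lectins separated the cells in both directions. Of 21 tested, 14 were higher and 3 lower. Among the higher, Clec1b, Clec9a, Cd209b and Clec4g were at 0 in both BMDM libraries and could pass the filter only through other libraries. Clec4g is also on the list of sinusoidal endothelial genes described below. Cd207, langerin, read 244 and 309.8 TPM against 2.76 and 3.14 TPM, a difference of 6.13 ± 0.12 (limma adjusted p = 7.3e-10). The 3 lower genes, Clec5a, Clec4e and Clec4d, encode activating receptors of inflammatory myeloid cells. Clec4e, the mycobacterial glycolipid receptor Mincle, read 0.572 and 0.371 TPM against 138 and 142 TPM, a difference of -6.59 ± 0.11 (limma adjusted p = 3.5e-10). Of 6 Fc receptor genes tested, 4 were higher, led by Fcgrt, the neonatal receptor that recycles IgG, at 500.3 and 557 TPM against 11.1 and 9.62 TPM, a difference of 5.55 ± 0.07 (limma adjusted p = 9.3e-11). Of 16 genes of Toll-like receptors and their partners tested, 9 were higher, among them the partner genes Ly96, Unc93b1 and Cd14. The 2 lower were Tlr13 and Cd180. Tlr12, a mouse receptor for parasite profilin, read 75.4 and 67.7 TPM against 0 in both BMDM libraries, at least 1244-fold higher (limma adjusted p = 6.5e-11), whereas the endotoxin receptor Tlr4 was not called at 38.7 and 44.5 TPM against 24.3 and 25.2 TPM.

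All 9 MHC class II genes tested were higher, with a median of 4.37. Cd74, the invariant chain, read 5446 and 8798 TPM in Kupffer cells against 262 and 315 TPM in BMDMs, a difference of 4.59 ± 0.21 (limma adjusted p = 1.1e-07). H2-Eb1, a chain of the antigen-presenting dimer, read 653 and 1281 TPM against 20.5 and 24.5 TPM and differed by 5.29 ± 0.30 (limma adjusted p = 4.3e-07). Ciita, the coactivator that controls these genes, read 17.1 and 24.6 TPM against 0.836 and 0.821 TPM, a difference of 3.56 ± 0.23 (limma adjusted p = 1.1e-06). The Kupffer libraries were unlike each other here, and the list summed to 9277 TPM in replicate 1 and 15599 TPM in replicate 2, both above the 459 and 545 TPM of BMDMs. Of 5 dendritic cell genes tested, Clec9a, Batf3, Dpp4 and Irf8 were higher and Bst2 lower, and the whole list summed to 511 and 407 TPM in Kupffer cells against 559 and 590.3 TPM in BMDMs. Clec9a read 32.9 and 35.5 TPM in Kupffer cells, while Flt3 read 0.158 and 0.171 TPM, Xcr1 0.108 and 0.093 TPM and Zbtb46 2 and 2.22 TPM, below the filter. All 3 B cell and plasma cell genes tested, Bank1, Cd79b and Jchain, were higher, and that list summed to 97.6 and 87.6 TPM against 1.08 and 1.18 TPM. At those sums no member could pass the 4 TPM filter through the wild-type BMDM libraries, so this count follows in part from the filter. Bank1 read 64.2 and 57.4 TPM and Cd79b 22 and 25 TPM in Kupffer cells, while Ms4a1 and Pax5 were below 1 TPM. The part of such cells in the MHC class II values was not tested. CCAAT occurred in 5 of the 6 list members with a promoter in the table, and that of H2-Eb1 is shown because both strands carry a copy (chr17:34305617-34305916, + strand; capitals mark CCAAT and its complement ATTGG).
H2-Eb1: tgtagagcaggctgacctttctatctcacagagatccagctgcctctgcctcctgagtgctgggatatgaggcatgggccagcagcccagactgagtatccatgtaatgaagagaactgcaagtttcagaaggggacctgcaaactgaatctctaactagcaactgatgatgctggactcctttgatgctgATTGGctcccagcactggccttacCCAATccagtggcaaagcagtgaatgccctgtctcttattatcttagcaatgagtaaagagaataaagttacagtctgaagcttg

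MHC class I genes were not called in the lower direction. Of 18 tested, 10 were higher and none lower, with a median of 1.34. Cd1d1, which presents lipids to NKT cells, read 90.9 and 89.2 TPM against 5.91 and 5.3 TPM, a difference of 3.79 ± 0.08 (limma adjusted p = 9e-10). B2m, the light chain, read 4885 and 4398 TPM against 3054 and 3353 TPM and was below 2-fold. Near-identical H2-Q genes may share reads. Interferon-stimulated genes were mixed, and their count depended on Kupffer replicate 1. Of 26 tested, 16 were higher and 3 lower, with 11 higher and 4 lower when Kupffer replicate 1 was left out. Irf7, which amplifies interferon production, read 856 and 547 TPM against 71.2 and 79.3 TPM, a difference of 3.17 ± 0.18 (limma adjusted p = 4.1e-07). Gbp3, a guanylate-binding protein, was even between replicates at 81.5 and 77.6 TPM against 2.79 and 2.8 TPM, a difference of 4.41 ± 0.13 (limma adjusted p = 7.5e-09). Isg15, a ubiquitin-like protein, was lower at 26.5 and 10.5 TPM against 62.8 and 68.9 TPM, a difference of -1.91 ± 0.32 (limma adjusted p = 0.00051), or -2.54 without Kupffer replicate 1 and -1.28 without replicate 2. The list summed to 2921 and 1854 TPM in the Kupffer libraries.

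Cytokine and chemokine genes were called in both directions. Of 16 tested genes of inflammatory cytokines, their antagonists, receptors and regulators, 10 were higher and 4 lower. The count of higher genes depended in part on Kupffer replicate 1. The list summed to 2212 and 1947 TPM in the Kupffer libraries against 794 and 792 TPM in BMDMs. The higher genes were Il1b, Il1a, Il18, Il27, Il10, Il18bp, Il10ra, Mefv, Nlrp3 and Nfkbiz. The lower were Tnf, Osm, Il1rn and Tnfaip3. Il1b, the pyrogenic cytokine matured by inflammasomes, read 379 and 234 TPM in Kupffer cells against 1.15 and 1.62 TPM in BMDMs, a difference of 6.98 ± 0.20 (limma adjusted p = 7.3e-09). Il18bp, the decoy that neutralizes IL-18, read 880.1 and 915 TPM against 12.4 and 13.8 TPM and differed by 5.99 ± 0.09 (limma adjusted p = 2.1e-10). Tnf went the other way, at 7.32 and 3.9 TPM against 63.6 and 65.8 TPM, a difference of -3.36 ± 0.27 (limma adjusted p = 4.3e-06), though the other BMDM libraries read 9.87 to 17.9 TPM.

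Of 20 chemokine genes tested, 8 were higher and 10 lower. Ccl24, which attracts eosinophils, read 155 and 159.8 TPM against 0.108 and 0 TPM, a difference of 7.23 ± 0.07 (limma adjusted p = 2e-11). Ccl2, the main attractant of monocytes, read 27.5 and 17.5 TPM against 875 and 802 TPM and differed by -5.19 ± 0.16 (limma adjusted p = 1.1e-08). Ccl7, its neighbour on the chromosome, read 6.27 and 4.18 TPM against 467 and 469 TPM, a difference of -6.26 ± 0.24 (limma adjusted p = 3.8e-08). In the other BMDM libraries Ccl2 read 13.5 to 300.5 TPM and Ccl7 13.3 to 68.7 TPM. Among 12 receptor genes for chemokines and other chemoattractants tested, 9 were higher, Fpr1 and Fpr2 among them, and 2, Ccr1 and C5ar1, lower. Ccr3, the eotaxin receptor, read 10.5 and 9.48 TPM against 1.26 and 1.21 TPM, a difference of 2.29 ± 0.08 (limma adjusted p = 2.1e-08). Ccr1 read 0.542 and 0.513 TPM against 18.2 and 20.8 TPM, a difference of -3.74 ± 0.08 (limma adjusted p = 1.4e-09). Of 14 eicosanoid genes tested, 8 were higher, among them Ptgs1, the constitutive cyclooxygenase, at 498 and 484 TPM against 3.64 and 3.83 TPM, and 1 was lower, the prostaglandin E synthase gene Ptges at 0.079 and 0.057 TPM against 13.9 and 11.7 TPM.

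Glycolysis genes were mostly lower in Kupffer cells. Of 19 glycolysis genes tested, 12 were lower and none higher, with a median of -1.58. Pkm, pyruvate kinase, read 152 and 162 TPM in Kupffer cells against 1755 and 1644 TPM in BMDMs, a difference of -3.43 ± 0.06 (limma adjusted p = 3.6e-10). Aldoa, aldolase A, read 374 and 371 TPM against 2153 and 2077 TPM and differed by -2.50 ± 0.05 (limma adjusted p = 9.9e-10). Slc16a3, the lactate exporter MCT4, read 5.62 and 4.21 TPM against 95.3 and 87.8 TPM, a difference of -3.98 ± 0.11 (limma adjusted p = 4.1e-09). Hexokinase 2, Hk2, was not called at 51.7 and 52.3 TPM against 31.9 and 30.3 TPM. Of 34 respiratory chain genes tested, 8 were lower and none higher, 5 to 10 lower under other settings, with a median of -0.64. Of 13 fatty acid oxidation genes tested, 2 were higher, Ppargc1b, whose call was lost without Kupffer replicate 1, and Ucp2, the latter a mitochondrial uncoupling protein gene at 1554 and 1727 TPM against 452 and 433 TPM, a difference of 1.89 ± 0.06 (limma adjusted p = 1.8e-08).

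Antioxidant genes were mostly lower. Of 18 tested, 12 were lower and 2 higher, with a median of -1.42. Nqo1, a quinone reductase, read 0.434 and 0.268 TPM against 41.7 and 43 TPM, a difference of -5.01 ± 0.22 (limma adjusted p = 9.6e-08). Slc7a11, the cystine importer, read 0.062 and 0.067 TPM against 23.1 and 21.9 TPM and differed by -4.46 ± 0.11 (limma adjusted p = 3e-09). Prdx1, a peroxiredoxin, read 203 and 179.7 TPM against 1921 and 1928 TPM, a difference of -3.33 ± 0.11 (limma adjusted p = 1.4e-08). Gpx1 and Gpx3, both glutathione peroxidases, were the higher pair, with Gpx3 at 165 and 160.4 TPM against 12.3 and 14.5 TPM, a difference of 3.51 ± 0.08 (limma adjusted p = 2.2e-09). Of 12 amino acid stress genes tested, 5 were lower and 1 higher, and Asns, asparagine synthetase, read 0.05 and 0.162 TPM against 40 and 35.5 TPM, a difference of -5.13 ± 0.12 (limma adjusted p = 2.5e-09).

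Lysosomal genes were called in both directions. Of 32 tested, 12 were lower, 3 higher and 17 not called, with a median of -0.62. Ctsd, cathepsin D, read 2059 and 2099 TPM against 8746 and 8772 TPM, a difference of -2.07 ± 0.06 (limma adjusted p = 4.6e-09). Cd63, a tetraspanin of late endosomes, read 3.14 and 3.4 TPM against 388 and 426 TPM and differed by -6.58 ± 0.09 (limma adjusted p = 9.2e-11). Ctsc, cathepsin C, which activates serine proteases, was higher by 4.01 ± 0.08 (limma adjusted p = 9e-10), at 429 and 369.8 TPM against 24.7 and 22.9 TPM. The E-box CACGTG, a site of MITF, TFE and MYC factors and the same on both strands, occurred in 10 of the 24 list members with a promoter in the table (41.7%), against 10.6% of tested genes with one and 7.2% of all promoters there. The factor genes Mitf and Tfeb were not called, with Tfeb at 34.6 and 31.5 TPM against 21.1 and 22.4 TPM. The promoter of Ctsd, whose RefSeq gene start lies 43 bases from the listed gene start, is shown for its 2 E-boxes (chr7:142387778-142388077, - strand; capitals mark CACGTG).
Ctsd: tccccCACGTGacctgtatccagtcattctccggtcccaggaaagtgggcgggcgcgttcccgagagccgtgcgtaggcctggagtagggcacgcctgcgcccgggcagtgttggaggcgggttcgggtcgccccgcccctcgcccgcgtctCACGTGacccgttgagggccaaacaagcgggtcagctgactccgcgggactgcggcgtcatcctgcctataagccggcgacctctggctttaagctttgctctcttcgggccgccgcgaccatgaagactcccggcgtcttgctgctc

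Many cell cycle genes were lower, among them the helicase genes Mcm2 to Mcm7. Of 34 tested, 19 were lower and 1, Ccnd2, higher, a call lost with quantile normalization, with a median of -1.27. Mcm5, a subunit of the replicative helicase, read 5.03 and 3.85 TPM in Kupffer cells against 47.8 and 40.3 TPM in BMDMs, a difference of -3.05 ± 0.18 (limma adjusted p = 5.4e-07). Pcna, the replication clamp, read 34.6 and 33.9 TPM against 203 and 201 TPM and differed by -2.53 ± 0.14 (limma adjusted p = 4.3e-07). Mki67, a marker of all cycling phases, was not called at 13.3 and 10.2 TPM against 21.8 and 18.8 TPM, a difference of -0.75 ± 0.13 (limma adjusted p = 0.00053). The cycle inhibitor Cdkn1a, which encodes p21, was also lower, at 8.73 and 5.76 TPM against 215 and 232 TPM, a difference of -4.79 ± 0.16 (limma adjusted p = 1.4e-08). The other BMDM libraries spanned 16.6 to 160.1 TPM of Mki67. CCAAT occurred in 22 of the 28 list members with a promoter in the table (78.6%), and TTTGAA, the cell cycle homology region, in 11 of them (39.3%) against 11.4% of tested genes with one and 17.9% of all promoters. The promoter of Mcm5 is shown for its 3 CCAAT copies (chr8:75109259-75109558, + strand; capitals mark CCAAT).
Mcm5: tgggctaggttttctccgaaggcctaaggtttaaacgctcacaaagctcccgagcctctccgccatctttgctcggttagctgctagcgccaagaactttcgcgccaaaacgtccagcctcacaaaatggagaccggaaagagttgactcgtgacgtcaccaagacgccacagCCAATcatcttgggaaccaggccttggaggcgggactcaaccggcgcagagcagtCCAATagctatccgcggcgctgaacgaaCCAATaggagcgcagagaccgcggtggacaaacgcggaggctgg

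Kupffer cells and BMDMs also differed in structural genes. Of 23 actin and adhesion genes, 14 were lower and 2 higher, with a median of -1.60. Vim, the filament protein vimentin, read 158.8 and 137 TPM against 3298 and 3298 TPM, a difference of -4.47 ± 0.08 (limma adjusted p = 5.1e-10). S100a4, a calcium-binding protein of motile cells, read 4.84 and 2.73 TPM against 1079 and 1023 TPM and differed by -7.82 ± 0.26 (limma adjusted p = 1.5e-08). Zyx, the focal adhesion protein zyxin, was higher by 2.44 ± 0.08 (limma adjusted p = 1.7e-08). Of 13 integrin genes tested, 4 were higher and 5 lower, with Itga9 at 144 and 168 TPM against 2.12 and 1.95 TPM, a difference of 5.69 ± 0.08 (limma adjusted p = 1.1e-10). Adhesion genes best known from endothelium were mostly higher, 10 of 11 tested. Vcam1, the ligand of VLA-4 integrin, read 620 and 1033 TPM against 0.497 and 0.309 TPM, a difference of 9.16 ± 0.19 (limma adjusted p = 1.1e-09), and Pecam1, which encodes CD31, was higher by 6.02 ± 0.09 (limma adjusted p = 1.3e-10). Of 14 genes of metalloproteinases and their inhibitors tested, 7 were lower, the inhibitor gene Timp2 among them. Adamdec1, Timp3 and Mmp27 were the 3 higher genes. Adam8, a sheddase, read 1.61 and 1.34 TPM against 1148 and 1078 TPM, a difference of -8.81 ± 0.16 (limma adjusted p = 4.8e-10).

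Ribosomal protein genes were mostly not called. Of 33 ribosomal protein genes tested, 2 were lower, 1 to 4 under other settings, and none higher, with a median of -0.39.

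Markers of other liver cells were present in the Kupffer libraries. In bulk RNA, fewer cells of a type and less RNA per cell cannot be told apart. Hepatocyte genes summed to 2386 and 1505 TPM in the Kupffer libraries, of which Trf, the transferrin gene that macrophages also express, made up 1234 and 1175 TPM. Of 20 tested, 19 were higher, with 13 higher by limma-voom. Among the 20, 15 were at 0 in both BMDM libraries and could pass the filter only through other libraries. Counts of higher genes in this and the other marker lists below thus follow in part from the filter. Alb, albumin, read 458 and 126 TPM in the 2 Kupffer replicates and 0 in both BMDM libraries, and limma-voom did not call it. All 20 hepatocyte genes were higher in Kupffer replicate 1 than in replicate 2, and Apoa1 read 115 and 34.1 TPM. Their part in the higher genes was not tested, and Hpx, Hamp, Apoc4 and Hp share that order of the replicates.

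Sinusoidal endothelial genes summed to 471 and 467 TPM in Kupffer cells against 92.2 and 95 TPM in BMDMs, and 13 of 18 were higher. Stab2, a hyaluronan receptor of that endothelium, read 53.5 and 55.1 TPM against 0.087 and 0.121 TPM, and Lyve1 20.4 and 20.1 TPM against 0.018 and 0 TPM. Whether these cells bear on Bmp2, Acvrl1, Cdh5 and the other endothelial-type adhesion genes was not tested. Stellate cell and fibroblast genes summed to 230.2 and 262 TPM against 102 and 94.8 TPM, of which Ecm1, the 1 tested member not called, made up 156 and 179 TPM in Kupffer cells. The other 4 of 5 tested, Dcn, Rgs5, Hgf and Lrat, were higher, with 9 higher without the filter, and Dcn, decorin, read 32.5 and 37.3 TPM against 0.622 and 1.11 TPM. Erythroid genes summed to 143 and 138 TPM, mainly hemoglobin genes, whose copies within the alpha and within the beta chains share reads. Of 2 T cell and NK cell genes tested, Cd4 was higher, at 12.9 and 15.8 TPM against 0.532 and 0.584 TPM, and Ccl5 lower, with 4 higher without the filter, and Cd3e read 1.01 and 1.09 TPM in Kupffer cells. Of 3 neutrophil genes tested, Csf3r was higher, at 80.8 and 78.1 TPM against 6.04 and 5.27 TPM, and Mmp8 and S100a8 lower, and Ly6g was at 0 in both Kupffer libraries. The part of these cells in the results was not tested.

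Immediate early genes are induced within minutes of stimulation, which can include cell isolation. Of 22 tested, 11 were higher in Kupffer cells, 2 lower and 9 not called. Fosb read 43.2 and 35.5 TPM against 0.136 and 0.059 TPM, a difference of 5.19 ± 0.19 (limma adjusted p = 2.7e-08), and Egr1 33.7 and 27.2 TPM against 0.503 and 0.366 TPM, a difference of 4.45 ± 0.18 (limma adjusted p = 6e-08). Jun and Atf3 were lower, Jun not without Kupffer replicate 2. Fos, Egr1, Nr4a1, Il1b and Cxcl2 were each higher in Kupffer replicate 1 than in replicate 2, and the part of isolation in these levels was not tested.

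The same table holds Kupffer cells labelled Nr1h3 flox/flox Clec4f-cre +/-, here those tagged timP, and BMDMs labelled Nr1h3 KO, 2 libraries each. In the first, Cre is driven by Clec4f, a gene of Kupffer cells, and for the second the labels do not say how the deletion was made. Nr1h3 read 391 and 422 TPM in those Kupffer libraries, beside 409 and 393 TPM in the controls, and 8.05 and 8.81 TPM in those BMDMs, beside 41.9 and 43.3 TPM in the wild type. TPM summed over exons cannot show a loss of some exons, so the Kupffer deletion is not checked by this value. The difference between Kupffer cells and BMDMs depended on the Nr1h3 label for 433 genes (4.1% of those tested), 312 with a Kupffer minus BMDM difference further toward Kupffer in the cells labelled deleted (2.96%) and 121 further toward BMDMs (1.15%).

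Among leading Kupffer genes, Cd5l, Cdh5 and C6 differed from BMDMs by less in the cells labelled deleted. They are not among the 8 largest negative interaction values given below. Over all genes more interactions were positive (312) than negative (121). Cd5l read 816 and 893 TPM in the Kupffer cells labelled deleted and 6.11 and 6.38 TPM in the BMDMs labelled Nr1h3 KO, and its difference changed by -2.10 ± 0.17 (limma adjusted p = 0.00018). Cdh5 read 118 and 133 TPM against 0.204 and 0.217 TPM, a change of -2.03 ± 0.10 (limma adjusted p = 2.4e-05). C6 read 279 and 258 TPM in the Kupffer cells labelled deleted, against 918 and 1039 TPM in the controls, and 0 in both BMDM libraries labelled Nr1h3 KO. Vsig4 differed by 11.41 ± 0.09 in the cells labelled deleted, and its interaction value was -0.03 ± 0.13 (limma adjusted p = 0.91). On the lower side, Gpnmb read 7.85 and 10.3 TPM against 9763 and 9683 TPM, with an interaction value of -0.29 ± 0.24 (limma adjusted p = 0.45). Since both contrasts use the control libraries, they are given side by side and not as independent results.

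**Figure D5:**
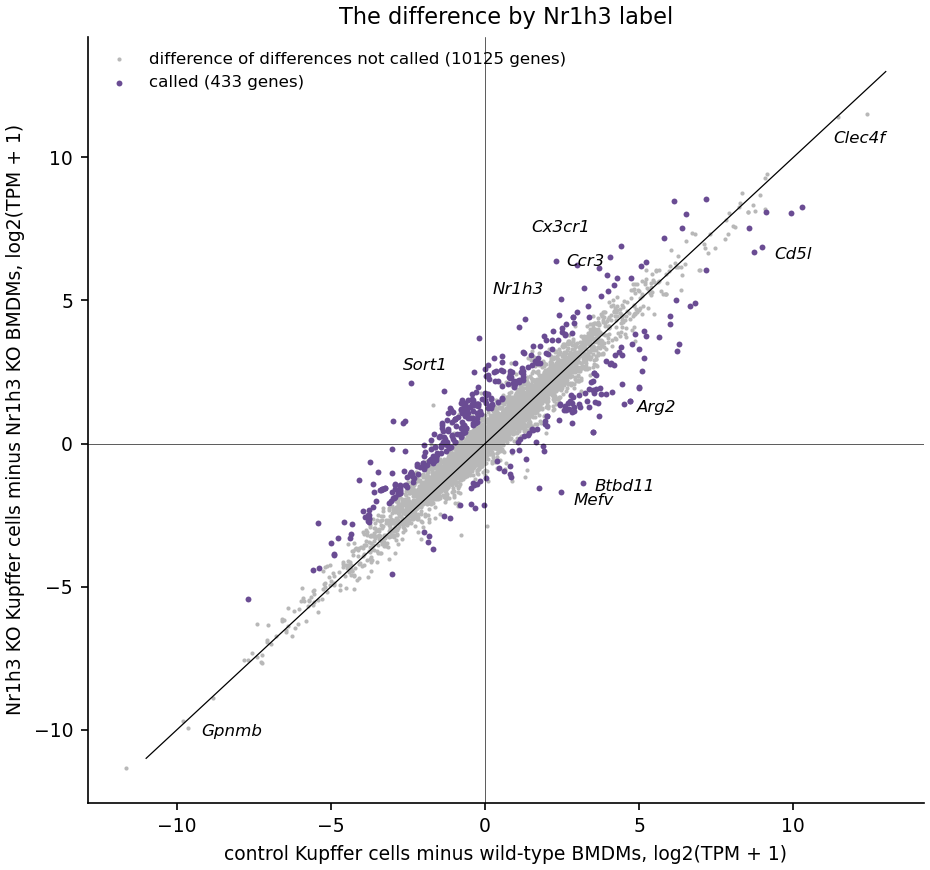
Difference between Kupffer cells and BMDMs, log2(TPM + 1), in the control and wild-type libraries (x axis) and in those labelled Nr1h3 deleted (y axis) for the 10558 tested genes, with the line of equal differences. The 433 genes whose difference changed are in violet, with Cd5l below the line and Sort1 and Ccr3 above it. Both axes are fitted values, and those of genes at 0 in a group are no bounds.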

How the data were processed

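RNA-seq libraries of mouse macrophages were made from poly(A) RNA. The authors deposited TPM values per gene; STAR, HOMER and mm10 are named in the submitters' processing notes, without roles or versions. Whole reads were recovered from the TPM of each library through the listed gene lengths: 100% of values of up to 20 reads came out whole within 0.1. TPM sums were 538463 to 574479 per library.

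Genes with at least 4 TPM in at least 2 of 10 libraries were kept, and log2(TPM + 1) was fitted with limma 3.58.1 (R 4.3.3, trended variance) over 5 groups with 5 residual degrees of freedom. A call meant at least 2-fold with an adjusted p (Benjamini-Hochberg) under 0.05. The Nr1h3 question was an interaction term in the same fit. Named genes were the members of the lists, the 15 largest called differences in each direction and 8 interactions in each direction (mean of at least 10 TPM), and the 10 most abundant genes per group. The 57 lists and the members were chosen with earlier results of these data known. Alternatives were a pseudocount of 0.25, no filter, quantile normalization, a replicate block, the 4 libraries alone, each library left out, and limma-voom on recovered reads. On simulated data of 9999 genes for this comparison, limma recovered 94.8% of genes changed 3-fold and 99% of those changed 6-fold, with 12 false calls. The simulation gave every group the same means and a dispersion of 0.04, apart from 200 genes chosen to change. It did not copy the 36.5% of genes called here or the wider spread of the Kupffer replicates, so error rates here may differ. Floors and lower bounds cover counting error only. Values of a few list members are not reported here. Promoters came from RefSeq (GRCm38.p6), for each gene the one nearest to the listed start.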

Additional observations from a re-analysis of the deposited data

Results flagged for a closer look

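A difference between Kupffer cells and BMDMs that depends on the Nr1h3 label was found, by the test of that difference itself, for 433 genes. The interaction value is the Kupffer minus BMDM difference in the cells labelled deleted, less that in control and wild-type cells, on the log2(TPM + 1) scale. The 8 largest positive values were those of Sort1 (4.51), Ccr3 (4.07), Sh2d1b1 (3.9), Gda (3.41), B4galnt1 (3.37), Cx3cr1 (3.24), Lrmda (3.17) and Ccr1 (3.1). Sort1, a sorting receptor, read 1.3 and 1.78 TPM in control and 42.2 and 42.8 TPM in Kupffer cells labelled deleted, and 12.7 and 11.9 TPM in wild-type and 9.06 and 8.92 TPM in BMDMs labelled Nr1h3 KO. Cx3cr1, the fractalkine receptor of monocytes, read 8.53 and 8.93 TPM, 103 and 78.8 TPM, 0.187 and 0.279 TPM and 0.183 and 0.25 TPM in the same order. B4galnt1, a ganglioside synthase, was uneven between control Kupffer replicates, at 2.02 and 11.5 TPM.

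The 8 largest negative values were those of Btbd11 (-4.53), Mefv (-4.18), Pianp (-3.32), Hba-a1 (-3.21), Hba-a2 (-3.21), Arg2 (-3.14), Hbb-b2 (-3.11) and Hbb-bt (-3.09). Mefv, which encodes pyrin, read 18.3 and 20 TPM in control and 0.227 and 0.659 TPM in Kupffer cells labelled deleted, and 2.41 and 2.84 TPM in wild-type and 3.79 and 3.49 TPM in BMDMs labelled Nr1h3 KO. Hba-a1 and Hba-a2 are copies of the alpha globin gene and Hbb-b2 and Hbb-bt of the beta globin gene. Reads may be shared within each pair, so the values within a pair are not separate. Hba-a1, Hba-a2 and Hbb-bt belong to the erythroid list above and were at 0 in both wild-type BMDM libraries. The part of red blood cells in these globin values was not tested.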

How the results depend on the processing

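No named gene called in the reported fit changed direction under an alternative, while some uncalled genes and list medians near 0 did. The median difference over all genes, 0.049, was -0.026 with quantile normalization and -0.024 by limma-voom. The count of called genes ran from 3764 to 3954 when 1 of the 4 libraries was left out, and was 4112 with a pseudocount of 0.25, 4534 without a filter, 3824 with quantile normalization and 4185 by limma-voom. The share of calls that were higher in Kupffer cells, 56.4% in the reported fit, was 58.1% without a filter, 52.1% with quantile normalization and 52.7% by limma-voom. Interactions numbered 357 to 468 with a library left out. The labels do not say that replicate numbers pair samples, and deviations of same-numbered samples correlated at -0.022 between the compared groups and at -0.225 to 0.339 over all pairs of the 5 groups. The highest was that of the TIM4-negative and TIM4-positive Kupffer cells labelled deleted. With the replicate block 3856 genes were called and 439 interactions. Of the named genes, 12 lost their call without Kupffer replicate 1, 12 without Kupffer replicate 2, 10 with quantile normalization and 8 by limma-voom. Values of hepatocyte genes moved by over 1.5 times when a Kupffer library was left out. The Kupffer libraries, which hold fewer reads than the BMDM libraries, limit what can be read from low genes.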
